A study of Mus musculus with 12 samples.

Results

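Transcripts of 10 genes that make, conjugate, carry and sense bile acids were followed in the livers of mice fasted for 24 h. The genes were picked by symbol from a count table of 56748 genes and are the synthesis enzymes Cyp7a1, Cyp8b1, Cyp27a1 and Cyp7b1, the conjugating enzyme Baat, the transporters Slc10a1, Slco1a1 and Abcb11, and the nuclear receptors Nr1h4 and Nr0b2. All 10 were in the table, and all 10 passed the filter on low counts in each comparison. There were 4 livers with a CPT2 liver-specific KO (SKO), 4 with a liver-specific double KO of ATF3 and CPT2 (DKO), and 4 from controls (WT) whose label reads CPT1A/1B/2 triple floxed. That label names no floxed Atf3, while the study describes controls floxed for Atf3 and Cpt2 in its RT-qPCR. A difference of mouse line between WT and KO livers cannot be told apart from deletion in the comparisons with WT. Floxed lines were crossed to albumin-Cre mice, which directs deletion to hepatocytes, and deletion in other cells of the liver was not checked. The labels give no age or sex, while the study describes the RNA-seq mice as male.

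Bile acids are made from cholesterol in hepatocytes. The classical route starts with the hydroxylase CYP7A1 and the alternative route with the mitochondrial sterol hydroxylase CYP27A1, and BAAT joins the products to taurine or glycine. NTCP (Slc10a1) and organic anion transporters take bile acids up from portal blood, and the export pump BSEP (Abcb11) secretes them into bile. Bile acids bind the receptor FXR (Nr1h4), which is known to switch on Abcb11 and Nr0b2, and SHP, the product of Nr0b2, is known to hold down Cyp7a1 and Cyp8b1.

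Promoters of 3 of the genes are shown because their levels took different courses across the genotypes. Abcb11 and Nr0b2 fell in SKO livers and lay within or above the WT range in DKO replicate 4, while Cyp8b1 passed no test. The sequences are the 250 bases before the RefSeq start site on GRCm38.p6, read on the strand of the gene, and capitals mark nuclear receptor motifs. Abcb11 lies at chr2:69342617-69342866 on the minus strand, Nr0b2 at chr4:133553126-133553375 on the plus strand and Cyp8b1 at chr9:121916306-121916555 on the minus strand.
Abcb11: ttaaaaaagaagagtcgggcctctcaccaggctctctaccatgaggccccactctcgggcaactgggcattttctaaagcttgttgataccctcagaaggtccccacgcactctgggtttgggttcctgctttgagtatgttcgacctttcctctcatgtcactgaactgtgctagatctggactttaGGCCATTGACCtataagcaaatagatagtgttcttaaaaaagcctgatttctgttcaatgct
Nr0b2: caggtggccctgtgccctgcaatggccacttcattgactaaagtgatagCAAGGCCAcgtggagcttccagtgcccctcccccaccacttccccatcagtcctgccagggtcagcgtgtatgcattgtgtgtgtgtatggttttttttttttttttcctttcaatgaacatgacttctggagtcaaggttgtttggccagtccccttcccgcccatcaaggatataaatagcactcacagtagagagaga
Cyp8b1: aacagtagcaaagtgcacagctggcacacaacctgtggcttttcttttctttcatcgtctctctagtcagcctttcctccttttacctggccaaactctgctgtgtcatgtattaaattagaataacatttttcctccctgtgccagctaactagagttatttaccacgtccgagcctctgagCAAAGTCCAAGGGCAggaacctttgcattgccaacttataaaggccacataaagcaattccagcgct
In Abcb11 the capitals are an inverted repeat of the FXR type (GGNCANTGNCC), which starts 62 bases before the start site. The capitals of Nr0b2 are a site of the LRH-1 type (CAAGGNCA), and those of Cyp8b1 are a site of the HNF4 type (CAAAGNCCA) that shares its last bases with an LRH-1 site. Windows from 250 bases before to 50 after the start were searched on both strands for 7 genes. Cyp7a1, Cyp7b1 and Baat were left out because their symbols had no match in the set of RefSeq windows used. The inverted repeat was in 1 of the 7 genes and in 0.676% of 32851 promoters. The LRH-1 letters were in 2 genes and 6.71% of promoters, and the HNF4 letters in 2 genes (Cyp8b1 and Slc10a1) and 1.98%. The half-site AGGTCA was in 4 genes and 16.3% of promoters, and its match in Abcb11 overlaps the inverted repeat. TATAAA was in 4 genes and 13.6% of promoters. The AP-1 letters TGANTCA (7.81% of promoters) and the CRE letters TGACGNCA (3.21%) were in 0 of the 7 genes. A match of letters is a description and not a binding site.

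Between 14710304 and 20030055 reads were counted on genes in each liver. Levels of a gene are given as CPM, counts scaled to library size by TMM over the 12 livers, and a gene without reads could have had up to 3 counts, or 0.145 to 0.196 CPM, by counting error alone. Cpt2 had 199 to 252 CPM in WT livers, 109 to 157 in SKO livers and 102 to 127 in DKO livers, and by edgeR it was lower than in WT in SKO (adjusted p = 0.000826) and DKO livers (adjusted p = 0.00627). Atf3 had 1.11 to 2.16 CPM in WT and 14.5 to 53.5 in SKO livers, and 7.93, 10.8, 13.7 and 0.271 in DKO replicates 1 to 4. It was higher in SKO than in WT livers (adjusted p = 1.99e-05, edgeR). Every DKO liver was below every SKO liver, with a log2 fold change of −1.91 that did not pass (adjusted p = 0.701, edgeR), and DKO replicates 1 to 3 were above every WT liver (DKO against WT 2.38, adjusted p = 0.0796, edgeR). Counts per gene do not separate the deleted exons, so they do not check the Atf3 deletion or how far Cpt2 was lost. SKO replicate 3 had 936 CPM of Xist and DKO replicate 4 had 1129, with at most 0.104 CPM summed over 4 Y-linked genes, while the other 10 livers had at most 0.990 CPM of Xist. Over 10 female-biased liver genes these livers had 694.7 and 1770 CPM in sum, and no other liver had over 41.64. By these transcripts SKO replicate 3 and DKO replicate 4 read as female, although the study describes the mice as male. Both KO groups thus mixed the sexes by transcript, while all WT livers had Y-linked counts (174.6 to 206.4 CPM). DKO replicate 4 also stood apart from the other DKO livers in Alb, with 75381 CPM where they had 25030 to 28540. Beside the results that DKO replicate 4 changed most, values without it are given.

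Hepatocyte markers were abundant in all livers, with 83430 to 103900 CPM summed over 8 genes in WT livers, 46710 to 75640 in SKO livers and 55970, 54530, 45940 and 101900 in DKO replicates 1 to 4. The sum, most of which is Alb, was below the WT livers in all SKO livers and DKO replicates 1 to 3. In DKO replicate 4 the markers did not go one way, with Alb and Ttr above the WT range, Ass1 and Tat within it and Apoa1, Apob, Cps1 and Serpina1c below it. By edgeR, 5 of the 8 (Alb, Ttr, Apob, Ass1 and Serpina1c) were lower in SKO than in WT livers. In DKO livers 1 (Serpina1c) was lower, and without DKO replicate 4 these 5 and Tat were. Markers of bile ducts, which also line the path of bile, summed to 42.6 to 52.0 CPM over 8 genes in WT livers, 21.2 to 27.2 in SKO livers and 26.5, 22.2, 32.6 and 45.0 in DKO replicates 1 to 4, with Krt19 at 5.93 CPM or less and Epcam at 1.79 CPM or less in every liver. Of the 5 tested, Sox9 and Spp1 were lower in SKO and Sox9 in DKO livers, where Spp1 was lower too without DKO replicate 4. Stellate and fibroblast markers summed to 179 to 202 CPM over 8 genes in WT livers, 235 to 328 in SKO livers and 214 to 282 in DKO livers, and Dcn made up most of the sum, with 106 to 131 CPM in WT livers. Of these 8, Dcn alone passed in SKO livers, where it was higher, while Col1a1, Col3a1 and Des had log2 fold changes of −0.32, −0.31 and −0.17 that did not pass. In DKO livers 0 passed, or Dcn without DKO replicate 4. Macrophage markers overlapped between WT and SKO livers, with 198 to 398 and 192 to 462 CPM over 8 genes, and DKO livers had 118, 182, 170 and 397. Cd68 was 4.86-fold higher in SKO than in WT livers (adjusted p = 0.000107, edgeR) and Marco was lower in DKO livers, and without DKO replicate 4, Cd68 was higher and 6 of the 8 were lower in DKO livers. Of 8 endothelial markers 0 passed in either KO. The part of these marker levels in the results was not tested, and fewer cells of a type and less RNA per cell cannot be told apart in whole liver.

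SKO livers were compared with WT first, to ask how bile acid genes stood in fasted livers with the CPT2 KO that the labels give. CPT2 is an enzyme of long-chain fatty acid oxidation. In SKO livers 8 of the 10 genes were lower than in WT livers and 0 were higher. These were Cyp7a1, Cyp27a1 and Cyp7b1 among the synthesis enzymes, Baat, all 3 transporters and Nr0b2, while Cyp8b1 and Nr1h4 did not pass the test. Over all 14261 genes tested, 32.1% passed, 15.4% lower and 16.7% higher (edgeR's quasi-likelihood test, Benjamini-Hochberg adjusted p under 0.05). The median log2 fold change was −1.76 over the 10 genes and 0.031 over all genes tested. The 8 lower genes were also the ones whose SKO and WT ranges did not overlap. How many of all genes had ranges apart was not counted, so this describes the 8 and adds no support. Each of the 8 was lower and past the threshold in all 13 alternative fits.

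In DKO livers 5 of the 10 genes were lower than in WT livers and 0 were higher, where 10.5% of 14448 genes passed, 4.39% lower and 6.06% higher. The 5 were Cyp7a1, Cyp27a1, Cyp7b1, Baat and Slco1a1. Their DKO and WT ranges did not overlap, which again was not counted over all genes. The median log2 fold change was −0.94 over the 10 genes and 0.030 over all genes tested. Without DKO replicate 4, Slc10a1, Abcb11 and Nr0b2 also passed, and 8 of the 10 were lower, where 17.5% of 14634 genes were lower. The median of the 10 was then −1.46. The count was 3 of 10 without WT replicate 1 or 2 or DKO replicate 2 or 3, where Cyp27a1 and Cyp7b1 did not pass and 244 to 379 genes passed in all, against 1510 with all 8 livers. Both comparisons share their WT livers, so these counts are not independent of each other.

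**Figure D1:**
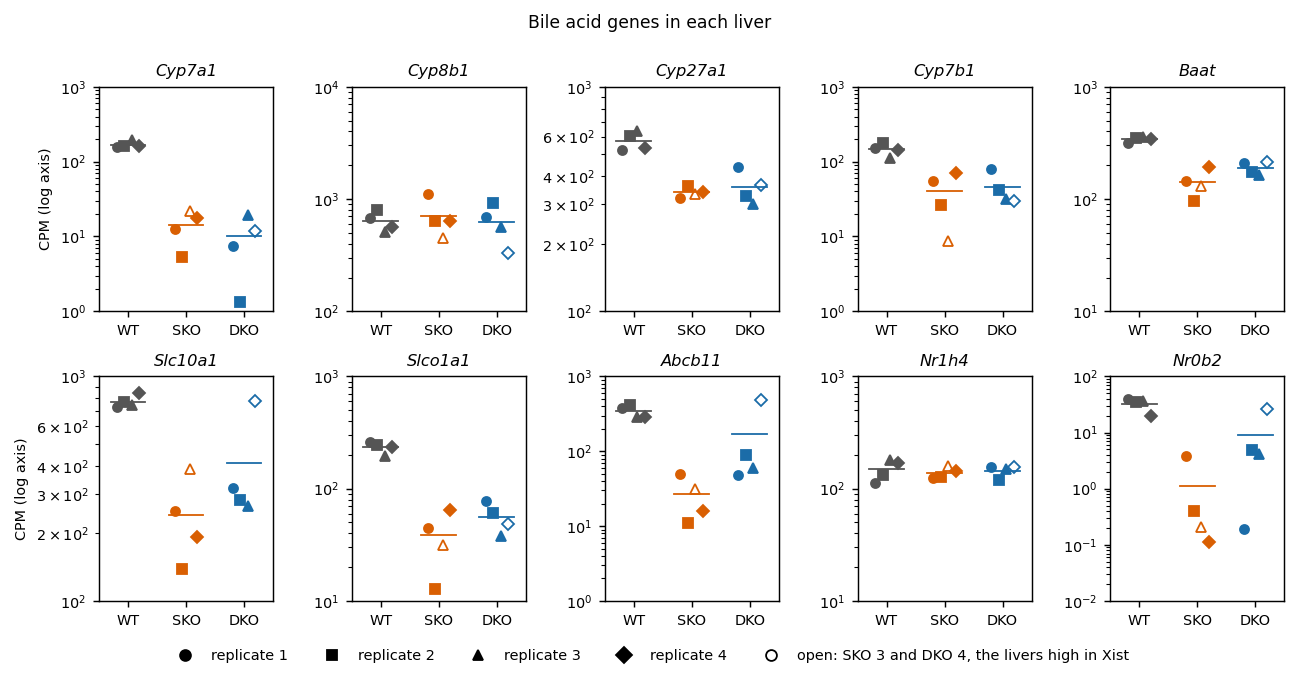
Level of each of the 10 genes in each liver, in CPM on a log axis, with the replicate shown by the marker, the group mean by a line and the livers high in Xist (SKO 3 and DKO 4) by open markers. Every SKO liver lies below every WT liver for 8 genes (not counted over all genes), and DKO 4 lies within or above the WT range for Slc10a1, Abcb11, Nr0b2 and Nr1h4.

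Cyp7a1 (ENSMUSG00000028240, chromosome 4 from 6265612 to 6275633, in the coordinates of the deposited table, which differ from the build GRCm38 that the submitters' notes name) encodes the rate-limiting enzyme of bile acid synthesis. It had 156, 163, 193 and 163 CPM in WT replicates 1 to 4 and 12.4, 5.32, 22.1 and 17.4 in SKO replicates 1 to 4. In DKO replicates 1 to 4 it had 7.45, 1.34, 19.6 and 11.7 CPM. No KO liver was above 13.1% of the WT mean, and DKO replicate 4 lay among the other DKO livers. Cyp7a1 fell by 3.54 on the log2 scale in SKO livers (standard error 0.34, adjusted p = 2.2e-05, edgeR), or 11.7-fold. It fell by 4.05 in DKO livers (standard error 0.61, adjusted p = 0.00896, edgeR), or 16.6-fold.

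Cyp8b1 (ENSMUSG00000050445, chromosome 9 from 121743422 to 121745371) encodes the sterol 12alpha-hydroxylase, which directs synthesis to cholic acid. WT livers had 683, 803, 508 and 562 CPM, SKO livers 1105, 639, 454 and 631, and DKO livers 691, 916, 559.9 and 333. The 3 groups overlapped, with the highest value in SKO replicate 1 and the lowest in DKO replicate 4. The log2 fold change was 0.16 in SKO (standard error 0.25, adjusted p = 0.668, edgeR) and −0.022 in DKO livers (standard error 0.29, adjusted p = 0.969, edgeR). Without SKO replicate 1 the value for SKO was −0.14, and without DKO replicate 4 the value for DKO was 0.18, so neither sign was stable.

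Cyp27a1 (ENSMUSG00000026170, chromosome 1 from 74752733 to 74777051) encodes the first enzyme of the alternative route. It had 522, 602, 635 and 531 CPM in WT livers, 320.5, 362, 332 and 339 in SKO livers, and 440.1, 326, 302 and 365 in DKO livers. Every KO liver was below every WT liver, by less than for Cyp7a1. Cyp27a1 fell by 0.74 on the log2 scale in SKO (standard error 0.12, adjusted p = 0.000774, edgeR) and by 0.66 in DKO livers (standard error 0.16, adjusted p = 0.0307, edgeR). The call in DKO livers was lost in 7 of 13 alternative fits, those without any 1 WT liver, without DKO replicate 2 or 3 and with the replicate block, with adjusted p of 0.0678 to 0.0908.

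Cyp7b1 (ENSMUSG00000039519, chromosome 3 from 18126114 to 18297502) encodes the oxysterol 7alpha-hydroxylase, which takes the alternative route further. WT livers had 153, 176, 113 and 145 CPM, SKO livers 54.4, 26.5, 8.60 and 70.0, and DKO livers 79.2, 42.1, 32.0 and 30.2. The KO livers were below the WT livers, and the lowest of each KO genotype was the liver high in Xist. Cyp7b1 is a male-biased gene of mouse liver, and 8 other male-biased genes summed to 15250 to 19760 CPM in WT livers, 6676 to 11430 in SKO livers and 7070 to 11900 in DKO livers other than those high in Xist, which had 1623 and 2292. Of these 8, Mup3 and Hsd3b5 were lower in SKO and Mup3 in DKO livers by edgeR. Without DKO replicate 4, Serpina1e, Mup20 and Cyp2d9 were lower in DKO livers too (adjusted p = 0.00556, 0.0195 and 0.0331, edgeR). Cyp4a12a did not follow the sum, since 3 of 4 SKO and 3 of 4 DKO livers were above every WT liver, and without DKO replicate 4 its log2 fold change in DKO livers was 0.56 (adjusted p = 0.00995, edgeR). Cyp7b1 fell by 1.87 on the log2 scale in SKO (standard error 0.47, adjusted p = 0.00987, edgeR), and in DKO livers the log2 fold change was −1.66 (standard error 0.31, adjusted p = 0.0159, edgeR). Without SKO replicate 3 it fell by 1.53 (adjusted p = 0.00171, edgeR), and without DKO replicate 4 by 1.51 (adjusted p = 0.00156, edgeR). The call in DKO livers was lost without WT replicate 1 or 2 or DKO replicate 2 or 3, with adjusted p of 0.0510 to 0.0562.

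Baat (ENSMUSG00000039653, chromosome 4 from 49489422 to 49506557) encodes the enzyme that conjugates bile acids to amino acids. It had 318, 347, 353 and 344 CPM in WT livers, 144, 95.2, 131 and 192 in SKO livers, and 208, 173, 163 and 215 in DKO livers. Every KO liver was below every WT liver, and DKO replicate 4 was the highest of the DKO livers. Baat fell by 1.26 on the log2 scale in SKO (standard error 0.18, adjusted p = 0.000339, edgeR) and by 0.83 in DKO livers (standard error 0.13, adjusted p = 0.0104, edgeR).

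Slc10a1 (ENSMUSG00000021135, chromosome 12 from 80999957 to 81015479) encodes NTCP, the main sodium-dependent uptake carrier of conjugated bile acids. WT livers had 728, 767, 748 and 847 CPM and SKO livers 251, 139, 388 and 193. DKO replicates 1 to 4 had 319, 280.4, 264 and 777 CPM. The SKO livers were all below the WT livers, and DKO replicate 4 alone of the KO livers was within the WT range. Slc10a1 fell by 1.66 on the log2 scale in SKO livers (standard error 0.26, adjusted p = 0.000531, edgeR). In DKO livers the log2 fold change was −0.90 (standard error 0.33, adjusted p = 0.105, edgeR). DESeq2 gave −0.92 (adjusted p = 0.0401), and without DKO replicate 4 edgeR gave −1.42 (adjusted p = 8.75e-06).

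Slco1a1 (ENSMUSG00000041698, chromosome 6 from 141853008 to 141892688) encodes an organic anion transporting polypeptide of the sinusoidal membrane and is male-biased in mouse liver. It had 262, 246, 197 and 236 CPM in WT livers, 44.5, 12.8, 31.3 and 64.9 in SKO livers, and 77.0, 61.2, 38.1 and 48.4 in DKO livers. Every KO liver was below every WT liver, and the livers high in Xist lay among the others of their genotype. Slco1a1 fell by 2.60 on the log2 scale in SKO (standard error 0.37, adjusted p = 0.000308, edgeR) and by 2.05 in DKO livers (standard error 0.22, adjusted p = 0.00337, edgeR). Without SKO replicate 3 it fell by 2.51, and without DKO replicate 4 by 1.99.

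Abcb11 (ENSMUSG00000027048, chromosome 2 from 69068626 to 69172960) encodes BSEP, the canalicular pump that moves bile salts into bile and drives bile flow. WT livers had 378, 409, 285 and 287 CPM and SKO livers 49.8, 10.9, 31.0 and 16.0. DKO replicates 1 to 4 had 48.6, 88.7, 60.5 and 487 CPM. The SKO livers reached at most 14.6% of the WT mean, and DKO replicate 4 was above all WT livers, while the other DKO livers were below them. Abcb11 fell by 3.65 on the log2 scale in SKO livers (standard error 0.41, adjusted p = 6.07e-05, edgeR), or 12.5-fold. In DKO livers the log2 fold change was −0.98 (standard error 0.66, adjusted p = 0.358, edgeR). Without DKO replicate 4 it was −2.36 (adjusted p = 1.73e-05, edgeR), which is 5.14-fold lower.

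Nr1h4 (ENSMUSG00000047638, chromosome 10 from 89290096 to 89369447) encodes FXR, the nuclear receptor that bile acids activate. It had 112, 134, 181 and 169 CPM in WT livers, 124, 127, 159 and 145 in SKO livers, and 157, 119, 149 and 155 in DKO livers. All SKO and DKO values were within the WT range. The log2 fold change was −0.085 in SKO (standard error 0.16, adjusted p = 0.730, edgeR) and −0.026 in DKO livers (standard error 0.17, adjusted p = 0.937, edgeR), and without WT replicate 3 both were above 0, at 0.0092 and 0.078.

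Nr0b2 (ENSMUSG00000037583, chromosome 4 from 133280687 to 133283847) encodes SHP, a receptor without a DNA-binding domain that represses other nuclear receptors. WT livers had 39.5, 35.1, 37.2 and 19.6 CPM and SKO livers 3.78, 0.405, 0.207 and 0.112, the latter from 59, 8, 4 and 2 reads. DKO replicates 1 to 4 had 0.194, 4.80, 4.23 and 26.6 CPM, from 4, 79, 82 and 492 reads. SKO livers were all below WT livers, and DKO livers spanned from the level of the lowest SKO livers to within the WT range, which DKO replicate 4 alone reached. Nr0b2 fell by 4.93 on the log2 scale in SKO livers (standard error 0.71, adjusted p = 0.000331, edgeR), and without SKO replicate 1 the log2 fold change was −7.01. In DKO livers the log2 fold change was −1.87 (standard error 0.87, adjusted p = 0.187, edgeR). Without DKO replicate 4 it was −3.44 (adjusted p = 0.000882, edgeR), which is 10.9-fold lower.

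**Figure D2:**
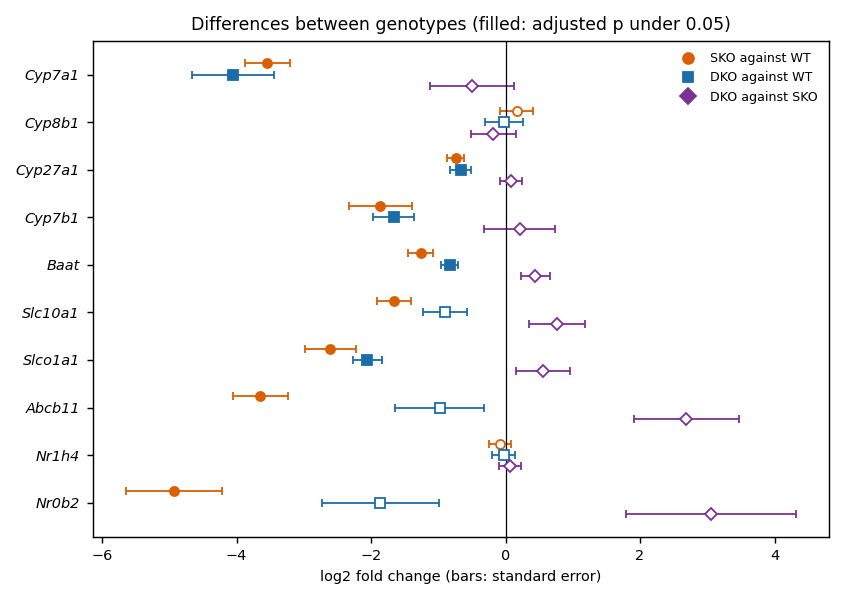
Fitted log2 fold change of each of the 10 genes in the 3 comparisons, with bars of 1 standard error and filled markers where the adjusted p was under 0.05. Filled markers number 8 for SKO against WT, 5 for DKO against WT and 0 for DKO against SKO, and Abcb11 and Nr0b2 lie farthest to the right in the last.

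DKO livers were then compared with SKO livers, to ask what a deletion of ATF3, as the labels give it, changed in livers with the CPT2 KO. Of the 10 genes 0 passed the adjusted threshold, where 0.0209% of 14363 genes did (Lars2, Bmper and H2-T-ps). The DKO and SKO ranges overlapped for all 10, which was not counted over all genes either. By unadjusted p under 0.05, Abcb11 and Nr0b2 were higher in DKO livers, 2 of 10 where 4.11% of all genes were, and DESeq2 also called 0 of the 10 after adjustment. The log2 fold change of Abcb11 was 2.69 (standard error 0.79, unadjusted p = 0.00626, adjusted p = 0.503, edgeR). That of Nr0b2 was 3.05 (standard error 1.27, unadjusted p = 0.0357, adjusted p = 0.734, edgeR).

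Much of both values came with DKO replicate 4. Without it the log2 fold change was 1.28 for Abcb11 (standard error 0.42, unadjusted p = 0.0106, adjusted p = 0.479, edgeR) and 1.47 for Nr0b2 (standard error 1.04, unadjusted p = 0.183, adjusted p = 0.870, edgeR), and 0 of the 10 genes were called where 0.103% of genes were. With only the 6 KO livers that had Y-linked counts, Abcb11 had 1.36 (standard error 0.45) and Nr0b2 1.11 (standard error 1.03). Without SKO replicate 1, the SKO liver highest in Nr0b2, the value for Nr0b2 was 5.18 (standard error 1.43, adjusted p = 0.627, edgeR). In replicates 1 to 3, DKO livers had 48.6 to 88.7 CPM of Abcb11, where the 4 SKO livers had 10.9 to 49.8, so that only the lowest DKO liver was within the SKO range. The other 8 genes had log2 fold changes of DKO against SKO from −0.50 (Cyp7a1, standard error 0.63) to 0.77 (Slc10a1, standard error 0.41), and the value for Slc10a1 was 0.24 (standard error 0.29) without DKO replicate 4. Slco1a1 had 0.56 (standard error 0.40), Baat 0.44 (0.22), Cyp7b1 0.21 (0.53), Cyp27a1 0.084 (0.17), Nr1h4 0.066 (0.16) and Cyp8b1 −0.18 (0.34). The median of the 10 was 0.32, and 0.0086 over all genes tested.

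The genes did not stand in one order in every liver. Each liver was summarized by the median over the 10 genes of the log2 ratio to the WT mean, which was −1.53, −2.47, −2.15 and −1.46 in SKO replicates 1 to 4 and −1.08, −1.63, −1.87 and −0.66 in DKO replicates 1 to 4. SKO replicate 2 was the lowest SKO liver for Cyp7a1, Baat, Slc10a1, Slco1a1 and Abcb11. DKO replicate 2 had the lowest Cyp7a1 of all 12 livers, and DKO replicate 1 had the lowest Nr0b2 of the DKO livers. DKO replicate 4 was above the other DKO livers for Baat, Slc10a1, Abcb11 and Nr0b2, below them for Cyp8b1 and Cyp7b1, and among them for Cyp7a1, Cyp27a1, Nr1h4 and Slco1a1. In that liver Slc10a1 was within and Abcb11 above the WT range, while Cyp7a1 was at 6.97% of the WT mean.

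**Figure D3:**
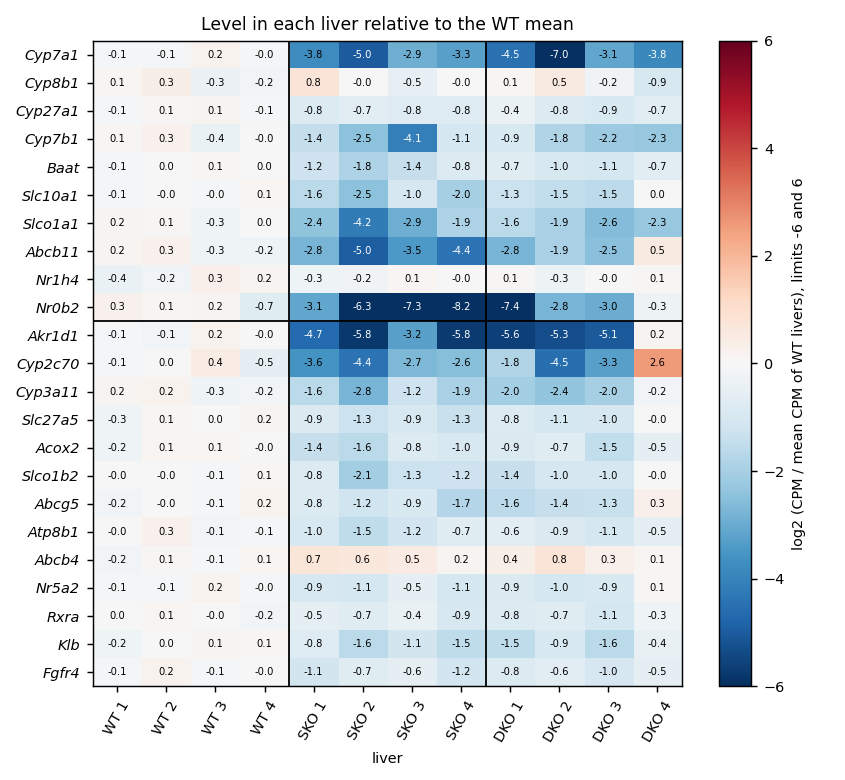
Log2 ratio of CPM to the mean of the WT livers in each liver, with the 10 genes above the black line and 13 other genes of the pathway under it. Blue cells fill the SKO columns and DKO 1 to 3 for most rows, and DKO 4 is near 0 or above for Slc10a1, Abcb11, Akr1d1 and Cyp2c70 while it stays blue for Cyp7a1, Cyp7b1 and Slco1a1.

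Levels of different genes were compared per length, as FPKM from the deposited table. In WT livers Slc10a1 (366 ± 24.6 FPKM, SD, n = 4), Cyp8b1 (341 ± 69.4) and Cyp27a1 (274 ± 26.8) came first, with overlapping ranges between neighbours. Baat (183 ± 8.57) followed apart from both sides. Cyp7b1 (70.5 ± 12.4), Abcb11 (68.8 ± 12.6), Nr1h4 (67.3 ± 14.4), Slco1a1 (46.4 ± 5.37) and Cyp7a1 (42.0 ± 4.18) overlapped from neighbour to neighbour, and Nr0b2 (30.2 ± 8.30) was last and apart. In SKO livers Cyp8b1 led apart from the rest (377 ± 149), Nr1h4 (62.7 ± 7.03) was apart from the gene after it, Cyp7b1 (19.1 ± 13.1), and Cyp7a1 (3.56 ± 1.77) and Nr0b2 (1.04 ± 1.63) came last. In DKO livers Cyp8b1 led too (329 ± 128), with a range that overlapped that of Slc10a1 (192 ± 117), and Cyp7a1 (2.46 ± 1.87) was last by mean with a range that overlapped that of Nr0b2 (8.17 ± 11.0). DKO replicate 4 made that overlap, with 177 FPKM of Cyp8b1 and 366 of Slc10a1, while in DKO replicates 1 to 3 Cyp8b1 had 367, 482 and 291 and Slc10a1 150, 131 and 122.

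Ratios between genes were taken within each liver. Cyp8b1 over Cyp7a1, in FPKM, was 5.64 to 10.6 in WT livers, 43.9 to 257 in SKO livers and 60.6 to 1470.0 in DKO livers, with no overlap between either KO genotype and WT. The ratio of Cyp27a1 over Cyp7a1 was 6.26 to 7.11 in WT livers, 28.8 to 131 in SKO livers and 29.5 to 468 in DKO livers, again apart. Cyp7b1 over Cyp7a1 was 1.13 to 2.09 in WT livers, 8.42, 9.62, 0.749 and 7.74 in SKO replicates 1 to 4 and 3.14 to 60.7 in DKO livers. SKO replicate 3, a liver high in Xist, was below the WT livers in this ratio, and the other KO livers were above them. Uptake over export, as Slc10a1 over Abcb11, was 4.39 to 6.90 in WT livers and 11.8 to 29.9 in SKO livers. In DKO replicates 1 to 4 that ratio was 15.4, 7.40, 10.2 and 3.73, so that DKO replicate 4 was below every WT liver and the others were above.

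Other genes of the pathway were taken from 3 written lists. Of 14 tested enzymes of synthesis, 7 fell and 3 rose in SKO livers against WT, with a median log2 fold change of −0.40. Of 16 tested transporters, 4 were lower and 2 higher (median −0.39), and of 16 tested regulators, 6 were lower and 0 higher (median −0.24). Among all genes tested 15.4% were lower and 16.7% higher. In DKO livers 1 enzyme (Acox2), 1 transporter (Atp8b1) and 3 regulators (Fgfr4, Klb and Rxra) were lower than in WT livers and 0 were higher, where 4.39% of all genes were lower and 6.06% higher. Without DKO replicate 4 the counts over the 3 lists were 20 lower and 3 higher, where 17.5% of all genes were lower and 18.4% higher. Without any other 1 liver 0 to 2 of the listed genes passed, where 244 to 719 genes passed in all. Between DKO and SKO livers 0 passed by edgeR, and 4 did at an unadjusted p under 0.05, as 6.49% of all genes did, with Nfil3, Cyp2c70 and Abcb1b higher and Abcd3 lower in DKO livers. The log2 fold change of Cyp2c70 was 3.84 (standard error 1.35), and 0.38 (standard error 0.56) without DKO replicate 4.

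Akr1d1, the reductase that saturates the steroid ring during synthesis, and Cyp2c70, which makes the muricholic acids of mice, had the largest falls among the 14 other enzymes in SKO livers. Akr1d1 had 232 to 296 CPM in WT livers and 10.1, 4.71, 27.2 and 4.75 in SKO livers, and fell by 4.44 on the log2 scale (standard error 0.51, adjusted p = 6.95e-05, edgeR). In DKO replicates 1 to 4 it had 5.27, 6.32, 7.73 and 289 CPM, so that DKO replicate 4 was within the WT range and the others were with the SKO livers. Cyp2c70 had 36.1, 39.7, 52.4 and 27.0 CPM in WT, 3.21, 1.82, 5.96 and 6.54 in SKO, and 11.3, 1.70, 4.02 and 229 in DKO livers, and fell by 3.13 in SKO livers (standard error 0.35, adjusted p = 5.51e-05, edgeR). DKO replicate 4 was again the exception, at 590% of the WT mean. Without that liver both were lower in DKO than in WT livers, by log2 fold changes of −5.31 for Akr1d1 (adjusted p = 4.64e-08, edgeR) and −2.74 for Cyp2c70 (adjusted p = 0.00106, edgeR).

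Other enzymes of the list passed in both directions. Slc27a5, which activates bile acids to their CoA esters before conjugation, fell by 1.07 on the log2 scale in SKO livers, and the peroxisomal branched-chain oxidase Acox2 fell by 1.15. Amacr, the racemase of that path, fell by 0.52 and Cyp39a1, an oxysterol hydroxylase, by 0.80. Cyp3a11, a cytochrome P450 that hydroxylates bile acids for clearance, fell by 1.77. In contrast the peroxisomal genes Acot8, Abcd3 and Hsd17b4 rose by 0.76, 0.69 and 0.50. Each of these had an adjusted p of 0.0119 or less by edgeR. Scp2, a peroxisomal thiolase of the same path, had a log2 fold change of 0.10 (adjusted p = 0.708, edgeR) and Slc27a2, an acyl-CoA synthetase, 0.22 (adjusted p = 0.272, edgeR).

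**Figure D4:**
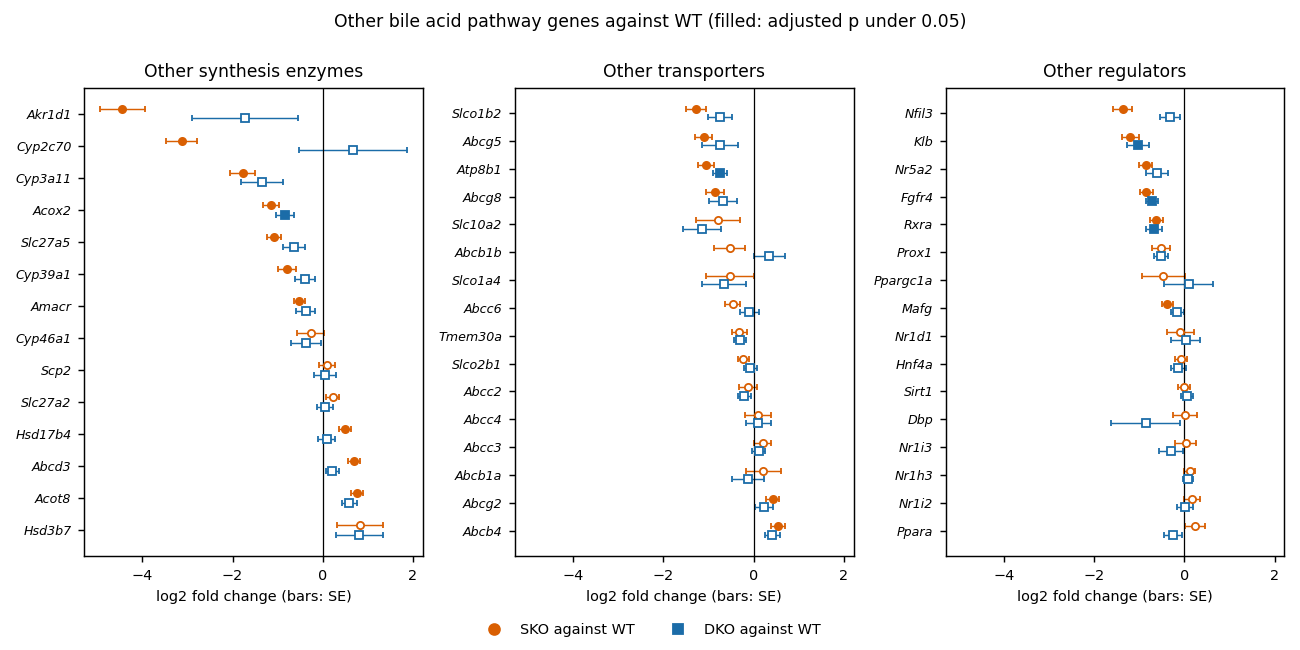
Log2 fold change against WT, with bars of 1 standard error, of the other synthesis enzymes, transporters and regulators that were tested, in SKO (circles) and DKO livers (squares), filled where the adjusted p was under 0.05. Filled circles number 10, 6 and 6 in the 3 panels, filled squares 1, 1 and 3.

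Among the other transporters, the uptake carrier Slco1b2 fell by 1.28 on the log2 scale in SKO livers, the aminophospholipid flippase Atp8b1 by 1.06, and Abcg5 and Abcg8, which together export sterols into bile, by 1.11 and 0.86. The phospholipid exporter Abcb4, whose product protects bile ducts from bile salts, rose by 0.54, and the efflux pump Abcg2 by 0.43. Atp8b1 had 38.0, 47.3, 35.2 and 35.4 CPM in WT, 19.8, 13.7, 17.5 and 23.4 in SKO, and 25.4, 21.1, 18.8 and 26.8 in DKO livers. All KO livers were below all WT livers, DKO replicate 4 included. Its log2 fold change in DKO livers was −0.75 (standard error 0.15, adjusted p = 0.0198, edgeR), a call that was lost without WT replicate 1 or 2 or DKO replicate 2 or 3. The basolateral exporters Abcc3 and Abcc4, which rise in many forms of cholestasis, passed in neither KO, and Slc51a and Slc51b had too few counts to be tested.

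The regulators that fell in SKO livers were the receptor Fgfr4 and its partner Klb, through which FGF15 from the intestine lowers Cyp7a1, the nuclear receptors Nr5a2 (LRH-1) and Rxra, the partner of FXR, and the repressors Nfil3 and Mafg. Klb fell by 1.20 on the log2 scale in SKO livers and by 1.03 in DKO livers (adjusted p = 0.000469 and 0.0318, edgeR), and Fgfr4 by 0.85 and 0.73 (adjusted p = 0.0012 and 0.0141, edgeR). Fgfr4 had 47.7, 58.7, 48.4 and 50.7 CPM in WT, 24.0, 31.3, 34.5 and 23.0 in SKO, and 29.0, 33.3, 25.6 and 35.3 in DKO livers. For both genes every KO liver was below every WT liver. The DKO call of Fgfr4 was lost without WT replicate 2, while those of Klb, Rxra and the enzyme Acox2 were lost in all 7 fits that left out 1 liver other than DKO replicate 4, and those of Rxra and Acox2 with the replicate block. Rxra fell by 0.62 and 0.67, Nr5a2 by 0.86 in SKO livers and Mafg by 0.38. Nfil3, a repressor linked to the circadian clock, fell by 1.37 in SKO livers, and DKO against SKO gave a log2 fold change of 1.04 (unadjusted p = 0.00102, adjusted p = 0.386, edgeR), with an adjusted p of 0.0174 by DESeq2. Hnf4a, Nr1h3, Nr1i2, Nr1i3 and Ppara passed in neither KO. Fgf15 had 0 counts in all 12 livers, which leaves up to 3 counts per liver open.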

How the data were processed

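RNA-seq was done on 12 livers of mice fasted for 24 h, 4 per genotype as the labels give it, with libraries made and sequenced by Novogene. For 56748 Ensembl genes the authors deposited the number of reads as raw counts, and FPKM values that are scaled by gene length and library size. The submitters' processing notes name HISAT2 and the build GRCm38 (mm10). The gene coordinates deposited with the counts differ from that build, since 1485 of 52073 gene starts equal GENCODE M21, so coordinates of genes and of RefSeq promoters are not on one scale. The counting program, annotation release and use of strand are not given in the sources used here. The authors also deposited log2 fold changes and p-values of their own comparisons, which were not used.

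Each pair of genotypes was compared on its 8 livers by edgeR 4.0.16 under R 4.3.3, using TMM, filterByExpr, no covariate and the two-sided quasi-likelihood test on the deposited counts. P-values were Benjamini-Hochberg adjusted over all genes tested, with a threshold of 0.05, after the script had been tested on simulated data. The standard error of a log2 fold change was taken from the fold change and its F statistic. CPM used TMM over the 12 livers, and SDs are between livers. The labels do not state that the 4 livers of a genotype came from separate animals, so p-values measure only the spread between these samples, which may be technical in part. No pair of libraries was a copy, with a chi-square per degree of freedom of 18.5 or more within a genotype. Totals of 14710304 to 20030055 counts per liver set the floor of 3 counts.

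The 10 genes, the lists of other pathway genes and markers and the settings were chosen with earlier results of these data known. All 10 are named, with up to 6 genes of each pathway list per comparison by the smallest p among those past the threshold and the genes behind counts of 5 or fewer. Genes outside that rule, chosen after their values were seen, are Lars2, Bmper, H2-T-ps, Cyp39a1, Amacr, the listed genes named as passing in neither KO, the marker genes other than Alb, Krt19 and Epcam, and the male-biased genes named beside Cyp7b1. Promoters were matched by symbol to RefSeq windows of GRCm38.p6 with Python 3.11.15. Alternatives were DESeq2 1.42.0, RLE size factors, no filter, all 12 livers in 1 fit, a replicate block, each liver left out, only livers with Y-linked counts and Xist counts as a covariate, the last pair for DKO against SKO. DESeq2 gave no adjusted p for Abcb11 in DKO against WT. A gene of the regulator list is not reported here and was left out of its counts.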

Additional observations from a re-analysis of the deposited data

Results flagged for a closer look

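In 30 groups of 4 livers (10 genes in 3 genotypes), 3 held a liver whose gap to its nearest neighbour was over Dixon's critical value for 4 livers, where chance gives about 1 in 20, or 1.5 of 30. DKO replicate 4 had 776.89 CPM of Slc10a1, with the other DKO livers at 264 to 319. The same liver had 486.97 CPM of Abcb11, with the other DKO livers at 48.6 to 88.7. SKO replicate 1 had 3.783 CPM of Nr0b2, with the other SKO livers at 0.112 to 0.405. The first pair comes from 1 liver and is not independent.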

How the results depend on the processing

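In SKO against WT, each of the 8 calls among the 10 genes was kept in all 13 alternatives. In DKO against WT, where 5 of the 10 genes, 5 other pathway genes and 1510 genes in all were called, DESeq2 called 10 other pathway genes and 2635 genes in all. Leaving out 1 liver gave 3 to 8 of the 10 genes, 0 to 23 other pathway genes and 244 to 5253 genes in all, with 244 genes in all and 0 other pathway genes without WT replicate 2 and the highest counts without DKO replicate 4. The 5 other pathway genes were all called without DKO replicate 4 and by DESeq2. In DKO against SKO, where 3 genes in all were called, the count was 97 with DESeq2, 35 with no filter, 21 with only livers with Y-linked counts, 9 with Xist counts as a covariate and 0 to 15 without 1 liver, and 1 other pathway gene (Nfil3) was called by DESeq2. The causes were not tested.

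The replicate numbers did not pair the livers, since deviations of same-numbered livers correlated at −0.34 to 0.089. With a replicate block, 8, 4 and 0 of the 10 genes were called in the 3 comparisons, with 22, 3 and 0 other pathway genes and 4111, 691 and 0 genes in all.

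Signs turned only for values that did not pass, each in fits that left out 1 liver, and these values are given as lowest to highest. In SKO against WT, Nr1h4 had −0.22 to 0.0092 (above 0 without WT replicate 3) and Cyp8b1 −0.14 to 0.33 (below 0 without SKO replicate 1). In DKO against WT, Cyp8b1 had −0.26 to 0.18 (above 0 without WT replicate 2 or DKO replicate 3 or 4) and Nr1h4 −0.16 to 0.078 (above 0 without WT replicate 3 or 4 or DKO replicate 2). In DKO against SKO, Cyp8b1 had −0.42 to 0.12 (above 0 without SKO replicate 1 or DKO replicate 4), Cyp7b1 −0.20 to 0.61 (below 0 without SKO replicate 3 or DKO replicate 1) and Cyp27a1 −0.031 to 0.16 (below 0 without DKO replicate 1).

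Counts of 2 to 8 reads of Nr0b2 in SKO replicates 2 to 4 limit its fold change there.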
